A study of Mus musculus with 8 samples.

Results

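Mm2pr, the long noncoding RNA that the treatment was directed against, was described together with the genes of its locus on mouse chromosome 5. The rows of the deposited table were taken by gene name: Mm2pr, the gene Hmgb1 in whose annotated span it lies, the noncoding genes Gm42787, Gm42788 and Gm43332 that lie within or across that span, and the protein-coding neighbours Uspl1, Alox5ap, Katnal1 and Medag. These were 9 of the 57010 genes of the table, and 6 of the 9 passed the filter on low values that left 16118 genes to test. The libraries were made from retina of C57BL/6J mice aged 17 days carrying oxygen-induced retinopathy, where high oxygen clears retinal capillaries from pups and abnormal vessels sprout once they breathe room air. The control group held 4 libraries of retinas treated with a control scAAV (a self-complementary adeno-associated virus, used as a gene delivery vector), and the knockdown group 4 libraries in which an scAAV was used to lower lncRNA-MM2P, listed in the table as Mm2pr. The sources call the second group a knockdown in the design and "AAV KO" in the treatment label. All 8 libraries thus share the retinopathy and a viral vector. The promoter of the vector, the hairpin it carries, the sex of the animals and whether each library is a separate animal are not stated there, so p-values measure the spread between these libraries, which may be partly technical.

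MM2P is known as a macrophage RNA that promotes the alternative, M2-type state of these cells. HMGB1, the product of the gene that surrounds it, is an abundant chromatin protein that bends DNA in the nucleus and acts as an alarm signal when cells release it, through the receptor RAGE and Toll-like receptors. Alox5ap encodes FLAP, which presents arachidonic acid to 5-lipoxygenase in myeloid cells, Uspl1 a SUMO isopeptidase of Cajal bodies, Katnal1 a katanin-like microtubule-severing ATPase, and Medag a protein that promotes fat cell differentiation.

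The sequences that Mm2pr shares with its neighbours bear on which reads can be told apart, so they are shown first. In GENCODE M21 on GRCm38, Mm2pr (ENSMUSG00000097191) lies on the minus strand at chr5:149119565-149184063 and has 2 transcripts, Mm2pr-201 with 4 exons and 1740 bases and Mm2pr-202 with 2 exons and 377 bases. The table lists no coordinates, and its length for Mm2pr, 1740 bases, equals that of Mm2pr-201. Of the 1856 exonic bases of the gene, 37 are also exonic in Hmgb1 on the same strand, 26 in Gm43332 and 198 in Gm42787 on the opposite strand, and 0 in Gm42788. Exon 1 of Mm2pr-201, at chr5:149184038-149184063 on the minus strand, is antisense to Gm43332 over its whole length, which the capitals mark. In exon 2, at chr5:149181995-149182035 on the minus strand, the capitals mark the 37 bases shared with exon 2 of the transcript Hmgb1-210, of which 28 are coding there and 9 are not. Both are read 5′ to 3′ from the annotated transcripts.
Mm2pr-201 exon 1: TTTCTTCCCTCTCTGATCTGCTCACG
Mm2pr-201 exon 2: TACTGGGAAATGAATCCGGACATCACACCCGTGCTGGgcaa
The longest run of identical bases that Mm2pr-201 and Gm43332 share was 26 bases in opposite sense and 10 in the same sense. Within these 26 bases alone the genes differ in strand only, while a read that runs on past them leaves the shared sequence. Whether the counting used strand is not given in the sources used here.

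The annotations place the start of Mm2pr differently. In GENCODE M21 Mm2pr starts 287 bases from the start of Uspl1, which runs the other way, and 426 bases from the start of Hmgb1-210, and Gm43332 ends 124 bases before the start of Uspl1. In RefSeq on GRCm38.p6, Mm2pr starts 2027 bases further downstream, and Hmgb1 has its starts at the far end of its GENCODE span, so the genes do not overlap there. The RefSeq start of Mm2pr is 129 kb from the outer of 2 Hmgb1 starts, and 66.5 kb lie between the GENCODE end of Mm2pr and that RefSeq Hmgb1 start. The sequences from 250 bases before to 50 bases after these RefSeq starts are shown because the levels of the genes are far apart and the Mm2pr window holds the exon 2 sequence above. They lie at chr5:149181987-149182286 for Mm2pr and chr5:149053008-149053307 for the outer Hmgb1 start, on the minus strand of GRCm38.p6, and capitals mark each CG.
Mm2pr promoter: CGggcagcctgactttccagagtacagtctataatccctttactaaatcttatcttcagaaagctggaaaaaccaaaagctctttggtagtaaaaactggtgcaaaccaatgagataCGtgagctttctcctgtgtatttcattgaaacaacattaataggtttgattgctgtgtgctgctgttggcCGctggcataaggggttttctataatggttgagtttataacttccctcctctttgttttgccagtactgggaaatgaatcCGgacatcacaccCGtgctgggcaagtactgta
Hmgb1 promoter, outer start: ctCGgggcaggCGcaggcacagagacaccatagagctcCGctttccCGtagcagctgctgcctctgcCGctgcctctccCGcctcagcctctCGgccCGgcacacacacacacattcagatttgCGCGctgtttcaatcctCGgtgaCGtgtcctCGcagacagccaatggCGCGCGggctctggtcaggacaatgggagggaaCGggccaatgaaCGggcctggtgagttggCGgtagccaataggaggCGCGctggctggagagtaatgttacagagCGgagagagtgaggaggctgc
The Mm2pr window held 5 CG pairs at 42.3% G and C, and the outer Hmgb1 window 22 at 63% (CG reads the same on both strands and cannot overlap itself). Of 32851 promoter windows of this length, with a median of 7 pairs, 62.0% held at least as many as the Mm2pr window and 23.1% at least as many as the outer Hmgb1 window. The label promoter refers to the RefSeq starts only. In GENCODE the bases of the Mm2pr window before exon 2 lie in the first intron of Mm2pr-201. The GENCODE start of Mm2pr lies outside the window, so these CG numbers do not describe it. The window of the inner Hmgb1 start, at chr5:149051567-149051866 and not shown, held 45 CG pairs at 77%, a number that 1.93% of the windows reached.

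**Figure D1:**
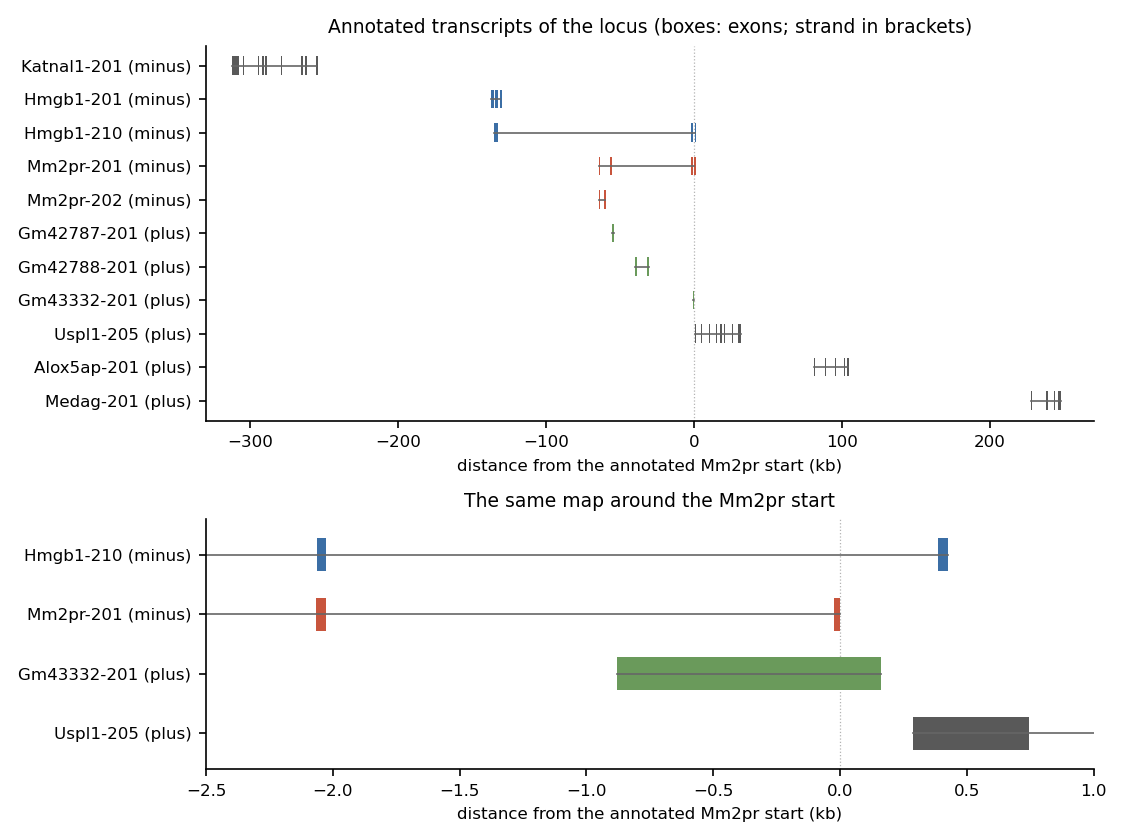
Annotated transcripts of the locus (GENCODE M21) by distance from the GENCODE start of Mm2pr in kb, with exons as boxes and the strand in brackets, over the whole locus above and within a few kb of the start below. Exon 1 of Mm2pr-201 lies inside the opposite-strand Gm43332, exon 2 lies on an exon of Hmgb1-210, and Uspl1 starts 287 bases away.

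Mm2pr itself was barely detected, and its levels in the groups overlapped. Control 1 and control 2 had 1 estimated count each, control 3 had 16.95 and control 4 had 7.34, while knockdown 1 and knockdown 2 had 0, knockdown 3 had 2 and knockdown 4 had 20.61. Control 3 and knockdown 4 stood above the rest and the groups overlapped, with the highest value of all in a knockdown library. The floor of a library, 3 counts of its total, was 0.140 to 0.187 CPM (counts per 1000000), and controls 1 and 2 and knockdown 1, 2 and 3 were under it. Per length, the mean was 0.441 ± 0.5002 TPM (transcripts per 1000000, computed from the counts and the table's gene lengths) in the controls and 0.414 ± 0.712 TPM in the knockdown (SD, n = 4). The quasi-likelihood test of edgeR, fitted over all 29694 genes with a count because Mm2pr did not pass the filter, gave a log2 fold change of -0.07 (SE 0.79, 95% interval -1.66 to 1.52, adjusted p = 0.993). That interval holds both a fall to 0.317 of the control level and a 2.86-fold rise. With a filter at a mean TPM of at least 0.1 the edgeR interval was wider, -2.27 to 2.14, and DESeq2 gave an SE of 1.23. At this depth the libraries could thus not show whether the target was lowered. The edgeR value of -0.07 rested on knockdown 4. Without that library the edgeR log2 fold change was -2.85 (unadjusted p = 0.0110, adjusted p = 0.505), and without control 3 it was 0.98 (adjusted p = 0.902). In bulk retina, fewer cells that carry an RNA and less of it per cell cannot be told apart.

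The Mm2pr counts were tied to those of Gm43332, a noncoding gene of a single exon on the opposite strand (ENSMUSG00000107313, chr5:149183183-149184226, plus). Gm43332 had 10, 26, 6.05 and 22.66 estimated counts in controls 1 to 4 and 14, 11, 11 and 0.39 in knockdown 1 to 4. Within each group it was lowest in the library where Mm2pr was highest, control 3 and knockdown 4. In the 3 libraries where Mm2pr was not a whole number, control 3, control 4 and knockdown 4, the counts of the pair added up to 23, 30 and 21, whole within 0.01 counts. Among 3370 genes with fractional counts in those same libraries, Gm43332 was the 1 gene for which this held in all 3. In the other 5 libraries Mm2pr had 0 to 2 counts, all whole, so the 3 largest Mm2pr values of the data are fractional counts that became whole only together with Gm43332. How the counting divided reads between genes is not stated in the sources, and whether the reads behind these values came from Mm2pr or from Gm43332 was not tested.

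Taken as 1 feature, the pair had 11, 27, 23 and 30 counts in controls 1 to 4 and 14, 11, 13 and 21 in knockdown 1 to 4. The knockdown libraries lay in the lower part of the range and the groups overlapped, because control 1 was as low as knockdown 2. The mean sum of the controls was 1.10 ± 0.407 CPM and that of the knockdown libraries 0.793 ± 0.193 CPM, with SD over n = 4. Over the 70 assignments that 4 libraries against 4 allow, the exact two-sided permutation p was 0.229, and 1 when adjusted over 5 such measures. Tested as 1 feature with edgeR, an alternative chosen after the fractional counts were seen, the pair gave a log2 fold change of -0.47 (SE 0.37, 95% interval -1.22 to 0.27, adjusted p = 0.848). Mm2pr alone gave an exact two-sided permutation p of 0.857 on CPM.

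**Figure D2:**
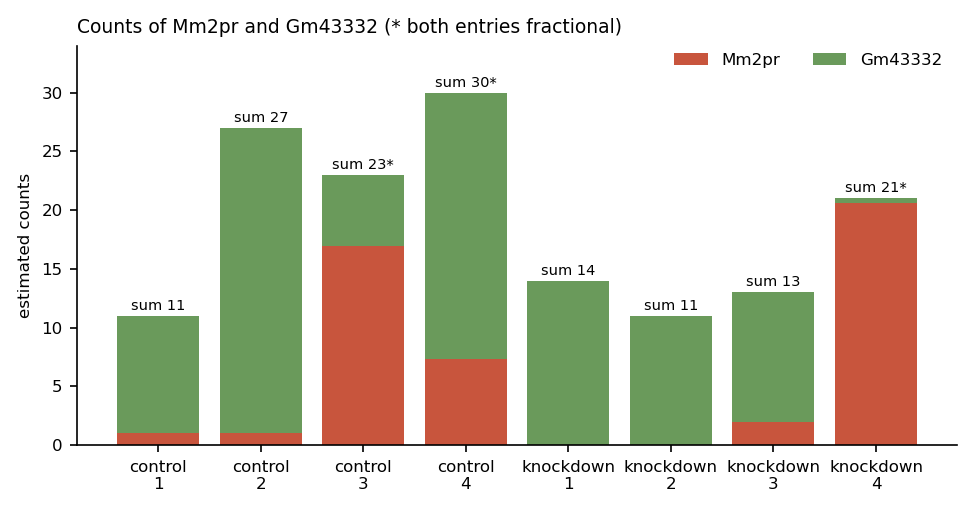
Estimated counts of Mm2pr (red) and Gm43332 (green) in each library, stacked, with their sum above each bar and an asterisk where both counts are fractional. The 3 fractional libraries have sums of 23, 30 and 21 counts, and in them Mm2pr takes 16.95, 7.34 and 20.61 counts.

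None of the 9 genes of the locus passed the test. With edgeR, 0 of 9 had an adjusted p under 0.05, where 0.062% of the 16118 genes above the filter and 0.529% of the 29694 genes without a filter passed. At an unadjusted p under 0.05 the number was again 0 of 9, against 5.27% and 5.11% of all genes, and DESeq2 and limma each called 0 of the locus genes, DESeq2 giving no adjusted p for Gm42787 (0.279% and 0% of all genes called above the filter, 0.165% and 0.00337% without it). The CPM of the groups overlapped for all 9, and did not overlap for 3.31% of the genes above the filter. With so few members, 0 calls is also what these background shares give.

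Of the other noncoding genes of the locus, Gm42788 was about as scarce as the target and Gm42787 scarcer, while Gm43332 passed the filter. Gm42788 (ENSMUSG00000107388, chr5:149144263-149153540, plus), which lies in an intron of Mm2pr with no shared exonic base, had 4, 1, 9 and 7 counts in controls 1 to 4 and 7, 2, 10 and 7 in knockdown 1 to 4. Its groups covered nearly the same range, and edgeR gave a log2 fold change of 0.48 (SE 0.67, 95% interval -0.87 to 1.82, adjusted p = 0.911). Gm42787 (ENSMUSG00000107133, chr5:149128584-149129957, plus), which lies opposite 198 bases of an Mm2pr exon, had 1 count in control 1, knockdown 2 and knockdown 3 and 0 in the other 5 libraries. Every library was under the floor, so no fold is given. Gm43332 on its own had 1.86 ± 1.12 TPM in the controls and 1.19 ± 0.781 TPM in the knockdown (SD, n = 4), and edgeR gave a log2 fold change of -0.67 (SE 0.64, 95% interval -2.04 to 0.69, adjusted p = 0.989). Without knockdown 4, the library in which most of the pair's counts stood under Mm2pr, the value of Gm43332 was -0.24, and without control 2 it was -0.36.

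Hmgb1 was the most abundant gene of the locus, at rank 488 of the 16118 tested genes by mean TPM, and its level was close in both groups. Hmgb1 (ENSMUSG00000066551, chr5:149046702-149184489, minus) had 265, 265, 273 and 281 TPM in controls 1 to 4 and 310, 280, 289 and 263 TPM in knockdown 1 to 4. By TPM knockdown 1 was the highest and knockdown 4 the lowest of the 8 libraries, so the knockdown values enclosed those of the controls. By CPM control 2 was the lowest, at 296 against 298 in knockdown 4. The means were 271 ± 7.63 and 286 ± 19.4 TPM (SD, n = 4), a log2 fold change of 0.07 by edgeR (SE 0.067, adjusted p = 0.989). The 95% interval of that fold change ran from 0.952-fold to 1.16-fold. Without knockdown 1 the log2 fold change was 0.01.

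Hmgb1 has many processed pseudogenes whose reads can be taken for its own. The table names 14 of them, 6 with any count, and together they had 10.28 to 28.56 counts in a library, against 5209.06 to 6896.23 for Hmgb1. Hmgb1-ps3 and Hmgb1-ps2 had the most, 49.47 and 40.92 counts summed over the 8 libraries. Of the counts on Hmgb1 and these 14 entries, Hmgb1 thus took 99.7 ± 0.0537% in controls and 99.7 ± 0.134% in knockdown libraries (SD, n = 4; exact two-sided permutation p = 0.4, adjusted p = 1 over 5 measures). The 14 were found by name, so any copy listed under another name is not included. How the authors' counting shared reads among these copies is not given in the sources used here. The 37 bases shared with Mm2pr are few beside the 2838 bases the table gives for Hmgb1.

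Uspl1, which starts beside Mm2pr and runs away from it, also overlapped between the groups. Uspl1 (ENSMUSG00000041264, chr5:149184350-149215434, plus) had 36.5, 41.8, 38.1 and 33.4 TPM in controls 1 to 4 and 39.3, 37.1, 44.6 and 40.4 TPM in knockdown 1 to 4. Knockdown 3 was the highest library and control 4 the lowest, and the groups overlapped from 37.1 to 41.8 TPM. The means were 37.4 ± 3.51 and 40.3 ± 3.13 TPM (SD, n = 4), and edgeR gave a log2 fold change of 0.10 (SE 0.065, 95% interval -0.04 to 0.24, adjusted p = 0.971).

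Alox5ap, the FLAP gene, was low in this tissue and the most variable of the protein-coding genes of the locus. Alox5ap (ENSMUSG00000060063, chr5:149264767-149288153, plus) starts 80.7 kb from Mm2pr. It had 3.91, 4.39, 2.50 and 3.28 TPM in controls 1 to 4 and 5.81, 2.90, 4.53 and 2.29 TPM in knockdown 1 to 4, from 23 to 57 counts a library. Knockdown 1 was the highest and knockdown 4 the lowest, and the coefficient of variation was 23.3% in the controls and 41.2% in the knockdown. The means were 3.52 ± 0.819 and 3.88 ± 1.60 TPM (SD, n = 4), a log2 fold change of 0.14 by edgeR (SE 0.30, 95% interval -0.51 to 0.80, adjusted p = 0.997). Without knockdown 1 it was -0.16.

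Myeloid RNA moved with that same library. Summed over 28 microglia and macrophage markers, the level was 309, 332, 306 and 318 TPM in controls 1 to 4 and 447, 294, 303 and 262 TPM in knockdown 1 to 4, so that knockdown 1 was the highest and knockdown 4 the lowest, as for Alox5ap, and no marker of the list was at 0 in all libraries. Lyz2, the lysozyme of macrophages and monocytes, had 84.8 TPM in knockdown 1 and 14.7 to 30.4 TPM in the other 7 libraries, and Arg1, the arginase used as an M2 marker, 16.1 TPM against 0.993 to 1.92 TPM. On log2 CPM the marker sum was 7.72 ± 0.0483 in controls and 7.74 ± 0.318 in knockdown libraries (SD, n = 4; exact two-sided permutation p = 1). That value rested on knockdown 1. The other 3 knockdown libraries (7.63, 7.66 and 7.47) lay below every control (lowest 7.68), and without knockdown 1 the difference was -0.14. The exact two-sided permutation p was then 0.0286, not adjusted, the smallest that 3 libraries against 4 can give. Knockdown 1 was singled out here after its value was seen. Leaving it out fixes that p in advance, so it is no test of a lower marker sum. The log2 ratio of Alox5ap to this sum was -6.92 ± 0.322 and -6.86 ± 0.379 (SD, n = 4; exact two-sided permutation p = 0.771, adjusted p = 1 over 5 measures). The 14 granulocyte and monocyte markers summed to 2.13 to 5.13 TPM in the controls and 4.49 to 6.58 TPM in the knockdown, with means of 3.98 and 5.41 TPM over 4 libraries each. Ly6g, Mpo and Elane were at 0 in all 8 libraries, while Csf3r, the granulocyte colony-stimulating factor receptor, had 20 to 32 counts in each and was the 1 gene of the list that passed the filter. The part of these cells in the Alox5ap values was not tested further.

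Katnal1 and Medag, the more distant neighbours, were likewise close between the groups. Katnal1 (ENSMUSG00000041298, chr5:148871584-148929320, minus), 190 kb from Mm2pr on the Hmgb1 side, had 23.3, 24.0, 24.2 and 22.3 TPM in controls 1 to 4 and 20.3, 23.6, 24.1 and 25.0 TPM in knockdown 1 to 4. By TPM its lowest library was knockdown 1, where Hmgb1 and Alox5ap were highest, and its highest was knockdown 4, where both were lowest. The edgeR log2 fold change was -0.02 (SE 0.057, 95% interval -0.14 to 0.10, adjusted p = 0.997), and 0.02 without knockdown 1. Medag (ENSMUSG00000029659, chr5:149411749-149431723, plus), 228 kb away on the Uspl1 side, had 9.36, 8.30, 9.71 and 9.98 TPM in controls 1 to 4 and 9.11, 10.6, 9.65 and 10.6 TPM in knockdown 1 to 4. Its groups overlapped, and edgeR gave a log2 fold change of 0.09 (SE 0.10, 95% interval -0.13 to 0.31, adjusted p = 0.989). Some Medag counts were fractional, and in 4 of those 5 libraries they added up to whole numbers with the overlapping gene Gm20488, which itself had 0 to 5.74 counts. Gm42791, which overlaps Katnal1, had 0 counts in all libraries, and Gm19719, antisense to Alox5ap, 0 to 10.

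**Figure D3:**
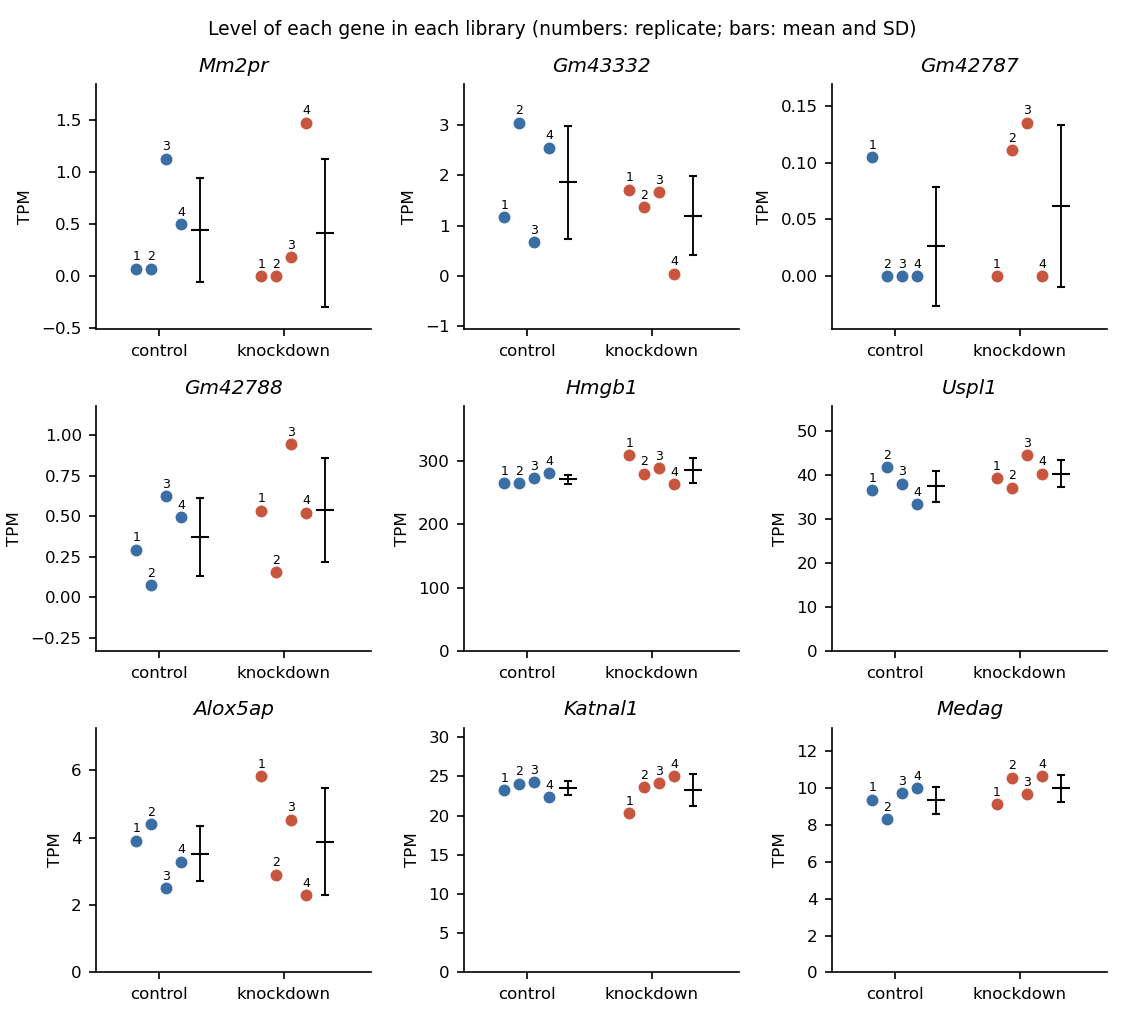
TPM of each gene of the locus in each library, with the replicate number above each point (blue, control; red, knockdown) and the mean and SD of the 4 libraries beside them; the scale differs between panels, and SD bars of the scarce genes reach below 0. The groups overlap in all 9 panels, and the Mm2pr panel shows 1 knockdown library at 1.47 TPM with the other 3 at 0 to 0.181 TPM.

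In order of mean TPM over the 8 libraries the locus ran from Hmgb1 (278) through Uspl1 (38.9), Katnal1 (23.3), Medag (9.66), Alox5ap (3.70), Gm43332 (1.53), Gm42788 (0.455) and Mm2pr (0.427) to Gm42787 (0.0439). The ranges of Hmgb1, Uspl1, Katnal1, Medag and Alox5ap did not touch. Those of Alox5ap and Gm43332 overlapped, as did those of the 4 noncoding genes, so their order does not hold beyond the spread between libraries.

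The wider neighbourhood held no called gene either. Within 1 Mb of Mm2pr the annotation lists 62 genes, of which 58 were in the table and 16 were tested, 6 of them the locus genes already given. Of the other 10, edgeR called 0 and 0 had an unadjusted p under 0.05, with 3 log2 fold changes above 0, 7 below, and a range of -0.14 to 0.18. The long noncoding RNA 5930430L01Rik had the smallest p of these, with 15.1 ± 1.38 TPM in the controls and 17.1 ± 1.96 TPM in the knockdown (SD, n = 4; edgeR adjusted p = 0.930). Hsph1, a chaperone of the heat shock family, had 82.3 ± 2.13 and 77.5 ± 7.86 TPM, and Ubl3, a membrane-anchored ubiquitin-like protein, 156 ± 2.64 and 150 ± 3.71 TPM.

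**Figure D4:**
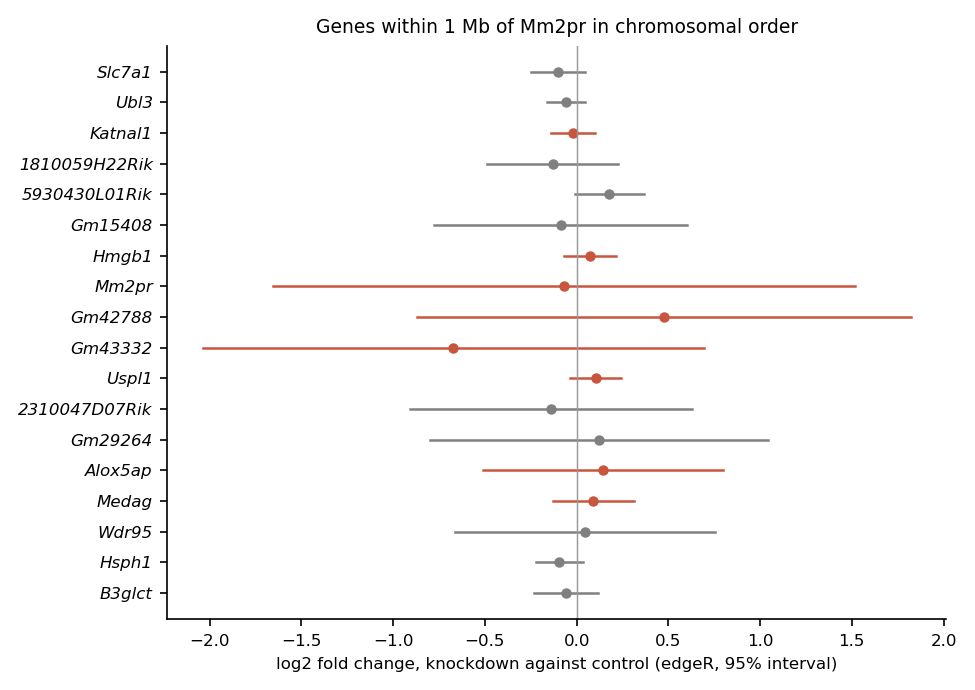
Log2 fold change, knockdown against control, with its 95% interval from edgeR, for the genes within 1 Mb of Mm2pr in chromosomal order (red, the locus genes; grey, the others; Mm2pr and Gm42788 from the fit without a filter, Gm42787 left out because all its counts are under the floor). Every interval includes 0, and those of Mm2pr, Gm42788 and Gm43332 are the widest.

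The relatives and partners of the proteins of the locus were followed through gene lists, none of which had a called gene. Over all tested genes 8343 log2 fold changes were above 0 and 7775 below, with a median of 0.00 and 0.062% called by edgeR. At an unadjusted p under 0.05 in edgeR the share was 5.27% of all tested genes, and 5.11% in the fit without a filter. Of the HMG proteins 17 were tested, 7 above 0 and 10 below, with a median of -0.01 and 0 at an unadjusted p under 0.05. Hmgb2, the close paralog of Hmgb1, had 46.2 ± 10.1 TPM in the controls and 41.0 ± 2.21 TPM in the knockdown (SD, n = 4; edgeR adjusted p = 0.979). Hmgb3 had 114 ± 5.23 and 120 ± 8.57 TPM (SD, n = 4; edgeR adjusted p = 0.989). The nucleosome-binding Hmgn2 and Hmgn1, the most abundant of the list, had 5635 and 1114 TPM in the controls and 5598 and 1119 TPM in the knockdown.

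Of 22 tested genes for receptors of extracellular HMGB1 and their signalling, 10 were above 0 and 12 below, with a median of -0.03. Ager, which encodes RAGE, had 2.43 ± 0.501 TPM in the controls and 1.86 ± 0.277 TPM in the knockdown (SD, n = 4; edgeR adjusted p = 0.989). Tlr4, the endotoxin receptor, had 1.10 ± 0.144 and 1.15 ± 0.374 TPM (SD, n = 4; edgeR adjusted p = 0.997). These receptors were thus present at levels well under that of Hmgb1. The 2 genes with an unadjusted p under 0.05 in edgeR were Ptprz1, a receptor-type phosphatase (log2 fold change 0.16, adjusted p = 0.859), and Rela, the p65 subunit of NF-κB (-0.24, adjusted p = 0.930). Among all tested genes 5.27% reached that threshold.

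Of 25 genes of the leukotriene pathway only 9 passed the filter, 7 above 0 and 2 below, with a median of 0.06 and 0 of these 9 at an unadjusted p under 0.05 in edgeR. Alox5, the 5-lipoxygenase that FLAP serves, did not pass it, with 0.397 ± 0.260 TPM in the controls and 0.152 ± 0.0819 TPM in the knockdown (SD, n = 4), from 2 to 15 counts a library. In the edgeR fit without a filter its log2 fold change was -1.36 (SE 0.67, 95% interval -2.70 to -0.02, unadjusted p = 0.0466, adjusted p = 0.848). The 1 other gene below the filter with an unadjusted p under 0.05 there was Cyp4f18, a cytochrome P450, with 0.192 ± 0.0892 and 0.673 ± 0.506 TPM (SD, n = 4; log2 fold change 1.77, adjusted p = 0.698). Among all genes of that fit 5.11% had such a p. Lta4h, which makes leukotriene B4, had 43.7 ± 1.81 and 44.5 ± 2.93 TPM (SD, n = 4; edgeR adjusted p = 0.997). Ltc4s, which makes leukotriene C4, had 1.33 ± 0.744 and 1.92 ± 1.71 TPM (SD, n = 4; edgeR adjusted p = 0.989).

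The lists around the other neighbours had no called gene either. Of 24 genes of the SUMO pathway, in which Uspl1 acts, 14 were above 0 and 10 below with a median of 0.01, and Senp7, a SUMO protease, was the 1 gene with an unadjusted p under 0.05 (31.0 to 33.6 TPM in the controls and 32.6 to 42.0 TPM in the knockdown; edgeR log2 fold change 0.20, adjusted p = 0.659). Of 16 Cajal body and snRNA transcription genes, 13 were above 0 and 3 below with a median of 0.03, Coil, the coilin that marks these bodies, at 23.0 ± 0.901 and 25.6 ± 2.42 TPM (SD, n = 4; edgeR adjusted p = 0.939). Of 15 katanin and related genes, 4 were above 0 and 11 below with a median of -0.02, and 0 at an unadjusted p under 0.05 in edgeR. Of 14 adipogenic genes, 8 were above 0 and 6 below with a median of 0.06. The fatty acid transporter Cd36 was the 1 of them with an unadjusted p under 0.05 in edgeR (adjusted p = 0.911), at 2.19 ± 0.297 and 3.37 ± 1.38 TPM (SD, n = 4). Of 27 tested microglia and macrophage markers, 16 were above 0 and 11 below with a median of 0.03. Lyz2 and Adgre1, the F4/80 antigen, had an unadjusted p under 0.05 in edgeR (adjusted p = 0.911 and 0.930). So did Arg1 (edgeR adjusted p = 0.787) among 8 tested M2-type genes, which had 7 above 0 and a median of 0.07. Among all tested genes the share at an unadjusted p under 0.05 was 5.27%.

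**Figure D5:**
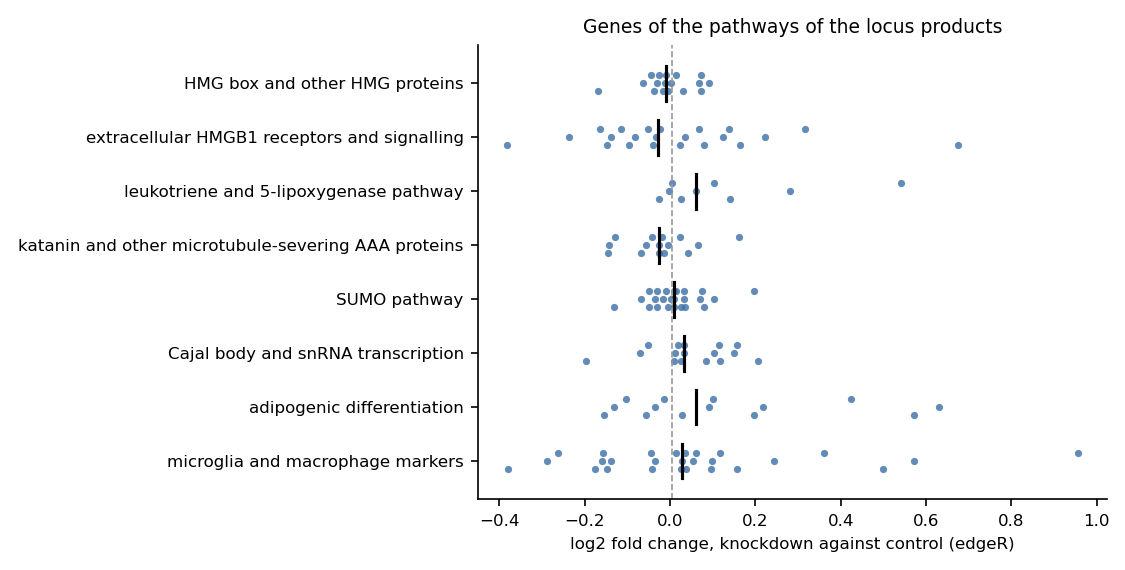
EdgeR log2 fold changes, knockdown against control, of the tested genes of 8 lists around the locus products (1 point a gene; black bar, median of the list; dashed line, median of all tested genes). The medians lie between -0.03 and 0.06, and no point stands for a called gene.

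The genes whose log2 CPM followed Hmgb1 most closely over the 8 libraries were Dbi, Sccpdh and Magoh, with Pearson's r of 0.99, 0.98 and 0.98, and 163 of 16117 genes reached 0.9. For Alox5ap they were Dolk, Dync1li1 and Il3ra, with r of 0.97, 0.97 and 0.96, and 25 genes reached 0.9. These are descriptions of 8 libraries that share knockdown 1 as the high end for both genes.

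The libraries held 16.03 to 21.4 M counts (M, 1000000) and 22895 to 23824 genes with a count. Pairs of the same group differed beyond sampling noise, with a chi-square per degree of freedom of 4.99 to 14.4, so no library was counted as a copy of another. The markers of the labelled tissue were abundant: 25 genes of retinal neurons and glia summed to 34357 to 36140 TPM in the controls and 32101 to 34748 TPM in the knockdown. The 24 lens genes summed to 15.1 to 18.6 TPM in the controls and 55.2 to 552 TPM in the knockdown, and 18 fibroblast and mesenchymal markers to 532 to 584 and 439 to 503 TPM. No gene of these 3 lists was at 0 in all libraries. The lens list held the 7 genes that edgeR called higher in the whole table, among 15 lens genes tested. Of all 16118 tested genes edgeR called 0.062%, and limma on log2(TPM + 1) called 0. The called lens genes with the smallest p had control means of 0.094 to 0.38 TPM. They were under 1 TPM in every control, so they passed the filter through the knockdown libraries alone. The part of these cell types in the values of the locus genes was not tested.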

How the data were processed

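The authors deposited 1 table of estimated counts per gene; its name says TPM, but its columns sum to 16.03 to 21.4 M and 90.6% to 91.9% of entries are whole. Per the submitters' processing notes Bowtie 0.12.2 and mm9 were involved, with no role stated; the counting tool, annotation and strand setting are not given in the sources at hand. Per the labels' protocols, TRIzol total RNA was read as PE150 on a NovaSeq X Plus. Positions are from GENCODE M21 (GRCm38), which holds 52029 (91.3%) of the table's 57010 IDs, and promoters from RefSeq (GRCm38.p6), which gave windows for 5 of the 9 genes.

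Counts were rounded and tested with edgeR 4.0.16 (R 4.3.3; quasi-likelihood, TMM, group as the only term; Benjamini-Hochberg adjusted p under 0.05) on the 16118 genes that reached 1 TPM in 4 or more of the 8 libraries. Mm2pr, Gm42787 and Gm42788, below that filter, were tested in the same fit over all 29694 genes with a count. TPM was computed from counts and table lengths. Fold change intervals use edgeR's total degrees of freedom, and floors of 3 counts cover counting error only. Alternatives used DESeq2 1.42.0, limma 3.58.1 on log2(TPM + 1), other filters and scalings, a Y-linked covariate, the replicate number and leaving out each library. On simulated data for this comparison (16118 genes) edgeR found 71.6% of the 67 genes altered 1.5-fold, 82.1% of the 67 altered 2-fold and 98.5% of the 66 altered 4-fold, and 5.08% of 177 calls were false. The altered genes were drawn from filtered genes above a minimum mean count, each with the spread typical of its level. Mm2pr, Gm42787 and Gm42788 were outside this draw, so these shares do not apply to them, nor to genes that vary more than is typical. A pair of columns with group means was not used. The genes and gene lists were chosen with earlier results of these data known. Named were all 9 locus genes and, for each list and the neighbourhood, called genes, the 2 smallest p-values and the 3 highest TPM, of which a part is printed. Ager, Tlr4, Alox5, Cyp4f18, Ly6g, Mpo, Elane, Gm20488, Gm42791 and Gm19719 fall outside this rule and were named for their role or overlap after their values were seen. Of the genes that this rule takes, 2 are not reported here.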

Additional observations from a re-analysis of the deposited data

Results flagged for a closer look

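A single library far from the other 3 was looked for in 26 groups of 4 libraries, over the locus genes and summed measures, and 2 were found. Chance alone gives such a gap in about 1 of 20 groups of normally distributed values. That rate does not hold for the 2 groups found, in which most counts were at or near 0. Mm2pr was at 1.47 TPM in knockdown 4 and at 0 to 0.181 TPM in the other 3 knockdown libraries. This is the library in which 20.61 of the 21 counts of Mm2pr and Gm43332 together stood under Mm2pr. Gm42787 was at 0.105 TPM in control 1, which is 1 count, and at 0 in the other 3 controls, a pattern that meets the rule by construction.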

How the results depend on the processing

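Of 213 values under other settings, 190 kept their direction and their side of the threshold, or, for counts of called genes, stayed within 1.5 times; 14 changed sign and 9 counts moved, and the cause was not tested. No locus gene was called under any setting that gave it a value (members called, 0 to 0 with libraries left out), and adjusted p-values of Mm2pr ran from 0.505 to 1 and those of Hmgb1 from 0.848 upward. With the Y-linked gene Ddx3y as a covariate the log2 fold changes were 0.60 for Mm2pr, -0.11 for Alox5ap and 0.0027 for Katnal1. With a shorter marker list the macrophage marker sum differed by -0.0503 on the log2 scale. The 10 called genes of the whole table became 45 with DESeq2, 0 with limma on log2(TPM + 1), 0 with limma on log2(TPM + 0.1), 157 with no filter and 1 among genes averaging 5 TPM or more, a minimum that Mm2pr, Gm42787, Gm42788, Gm43332 and Alox5ap did not pass. Gm42787 had no value at a mean TPM of at least 0.1. With each library left out in turn, log2 fold changes ran from -2.85 to 0.98 for Mm2pr, 0.01 to 0.11 for Hmgb1, -0.96 to -0.24 for Gm43332, 0.11 to 0.84 for Gm42788, 0.07 to 0.15 for Uspl1, -0.16 to 0.34 for Alox5ap, -0.0519 to 0.0220 for Katnal1 and 0.03 to 0.14 for Medag. The count of called genes ran from 0 (without control 1 or control 2) to 58 (without control 3), the Alox5ap to marker ratio from -0.0843 to 0.19 and the marker sum from -0.14 (without knockdown 1) to 0.11. Control and knockdown libraries of the same number did not deviate together (correlations 0.01, -0.01, -0.03 and -0.16). Pairs of unlike number ran from -0.15 to 0.17. No pairing by number was thus seen, though so few libraries cannot exclude one. With the replicate block 11 genes were called in all and 0 of the locus. The log2 fold changes were then -0.60 for Mm2pr, 0.07 for Hmgb1 and 0.09 for Alox5ap. Low counts limit what can be said of Mm2pr, Gm42787 and Gm42788, which had at most 20.61 counts in a library. The part of depth in this was not tested.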
